A study of Mus musculus with 8 samples.

Results

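The genes that encode the cytosolic ribosome and the factors that drive translation were examined in the fat around the thoracic aorta, in RictoraP2KO and control mice. Members were chosen by name: every symbol made of Rpl or Rps, digits and at most 1 trailing letter, the stalk proteins Rplp0, Rplp1 and Rplp2, and every symbol that starts with Eif or Eef and a digit. With each gene represented by its brightest probe set that maps to 1 symbol, this gave 131 genes of 18782. Of these, 71 encode ribosomal proteins (46 of the large subunit, 25 of the small) and 60 encode translation factors or their regulators. The naming rule itself uses no difference between the groups, though it was set with earlier results of these data known.

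The RictoraP2KO group held 4 arrays of mice named as knockouts of Rictor by aP2-Cre. The aP2 (Fabp4) promoter drives Cre in fat cells and is known to act in some other cells too. The control group held 4 arrays of mice with the floxed allele, labelled Rictorfl/fl. The mice of both groups were males of 17 to 22 weeks that had fasted overnight before they were killed at 9 am. Each sample was whole perivascular fat freed from the thoracic aorta, and the labels do not say that each array was a separate animal. In a whole tissue, fewer cells of a type and less RNA per cell cannot be told apart. Values are log2 RMA signals, differences are RictoraP2KO minus control on that scale with their standard error (SE), and groups are given as mean ± SD over n = 4 arrays.

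The cytosolic ribosome is built from a large and a small subunit, each an assembly of ribosomal RNA and many ribosomal proteins that are needed in equal numbers. Initiation factors (eIFs) bring the initiator tRNA, the messenger RNA and the small subunit together at the start codon, and elongation factors (eEFs) deliver aminoacyl-tRNA and move the ribosome along the message. In mammals most ribosomal protein messages, and those of several elongation factors, begin with a C followed by a run of pyrimidines, the terminal oligopyrimidine tract. Through this tract mTOR complex 1 controls how efficiently these messages are translated, chiefly by way of the binding protein Larp1. Rictor belongs to the other mTOR complex, complex 2, which phosphorylates Akt. An array measures the abundance of messages and not how well they are translated.

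The tissue label was checked against markers that define fat. Adipoq stood at 10.96 ± 0.11 in arrays labelled RictoraP2KO and 10.94 ± 0.10 in control arrays, and Ucp1, the uncoupling protein of brown fat, at 11.75 ± 0.26 and 11.67 ± 0.26 (SD, n = 4 each). Rictor itself showed no loss of signal, at 6.68 ± 0.08 in arrays labelled RictoraP2KO against 6.54 ± 0.06 in control arrays (difference 0.14, SE 0.063). Which part of the gene its probes cover was not examined here. The directions given here thus follow the array labels and not this signal. Some arrays carried signal of other tissues: 12 of 13 skeletal muscle markers, 7 of 9 heart markers, 11 of 11 B cell markers and 9 of 11 T cell markers were highest in RictoraP2KO replicate 2, 7 of 10 macrophage markers in RictoraP2KO replicate 1, 8 of 10 lung markers in control replicate 2, and 11 of 13 neuronal markers in control replicate 3. Where leaving out RictoraP2KO replicate 2 and control replicates 2 and 3 together turned the sign of a named member's difference or moved it by more than 1.5 times, that value is given too. They are called the 3 arrays with signal of other tissues below, but the arrays kept are not free of such signal. RictoraP2KO replicate 1 was kept, and so was control replicate 1, where heart markers averaged 0.36 above their mean over 8 arrays. At an unadjusted limma p under 0.05, 3 of 10 macrophage markers were higher, as were 2 of 11 T cell and 2 of 10 endothelial markers. None of 11 B cell, 8 smooth muscle, 11 fat cell and 10 brown fat markers was, where 2.92% of all genes were. All 10 macrophage markers had a difference above 0, with array means of 0.41, 0.27, -0.26 and 0.21 in RictoraP2KO fat, against 0.01, -0.27, -0.28 and -0.09 in control fat. This was not particular to them, as all 11 B cell, all 11 T cell and 12 of 13 skeletal muscle markers were above 0 too. Of the others, 0 of 13 neuronal, 2 of 9 heart and 3 of 10 lung markers were above 0, beside 46.8% of all genes. The part of any of these cell types in the values below was not tested.

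The start sites of some members named below show a sequence feature that part of the family has. RefSeq (build GRCm38.p6) lists a start for 104 of the 131 members. The windows printed here run from 10 bases before the annotated start to 20 bases after it, on the strand of the gene, and capitals mark a run of 7 or more C or T. The first 5 belong to ribosomal protein genes whose window holds such a run, at chr17:33955646-33955675 (minus strand) for Rps18, chr4:86857348-86857377 (minus) for Rps6, chr7:109519185-109519214 (plus) for Rpl27a, chr14:18270967-18270996 (minus) for Rpl15 and chr2:26910797-26910826 (plus) for Rpl7a. The last 2 belong to Rpl9 at chr5:65391412-65391441 (minus) and Rps15 at chr10:80292421-80292450 (plus), whose annotated windows hold none.
Rps18: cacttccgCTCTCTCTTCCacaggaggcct
Rps6: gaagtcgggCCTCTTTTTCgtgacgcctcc
Rpl27a: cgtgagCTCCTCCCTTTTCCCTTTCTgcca
Rpl15: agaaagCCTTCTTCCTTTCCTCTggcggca
Rpl7a: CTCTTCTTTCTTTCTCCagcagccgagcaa
Rpl9: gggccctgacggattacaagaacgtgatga
Rps15: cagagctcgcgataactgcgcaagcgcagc

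A run of 7 or more pyrimidines was found in 47.8% of the 69 ribosomal protein starts and in 27.4% of the 62 starts of factor genes, against 12% of 75 starts of mitochondrial ribosomal protein genes and 17.9% of all 32851 starts in the table. An annotated start can lie some bases away from the one a tissue uses, so a window with no run says only that these letters are not there. The 6-base motif CGGAAG, the core bound by ETS family factors, was searched on both strands of the 300 bases around each start. It stood in 59.4% of ribosomal protein starts and 46.8% of factor starts, with 53.3% of mitochondrial ribosomal protein starts and 16.9% of all starts. The motif AAGATGGC, bound by YY1, stood in 10.1% and 9.68% of the member starts, against 2.75% of all starts, and TATAAA in 10.1% and 6.45%, against 13.6% of all starts. The 90 bases before the starts of Rps18 (chr17:33955666-33955755, minus strand) and Rps6 (chr4:86857368-86857457, minus) each hold the 6-base motif 3 times. That number is not typical of the members, and the 90 bases before the starts of Rpl9, Rpl27a and Rpl7a hold none. The stretches of Rps18 and Rps6 are shown with CGGAAG or its reverse complement in capitals.
Rps18 upstream: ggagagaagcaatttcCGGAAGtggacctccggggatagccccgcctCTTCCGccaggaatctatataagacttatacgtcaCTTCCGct
Rps6 upstream: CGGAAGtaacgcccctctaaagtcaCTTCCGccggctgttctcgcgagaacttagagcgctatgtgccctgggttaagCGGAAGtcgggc

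Messages of the ribosome and of the translation factors differed little between RictoraP2KO and control fat. None of the 131 genes passed an adjusted p of 0.05 (limma, Benjamini-Hochberg over 28371 probe sets), where 0.00352% of all probe sets did, and the smallest adjusted p was 0.649, for Rpl9. Differences ran from -0.32 (Eif4e3) to 0.22 (Rpl9), with a median of 0.02 against -0.01 over all genes. With 1 array left out at a time the members' median lay between -0.0025 and 0.04, so its sign is not settled. At an unadjusted limma p under 0.05, 2 members were higher (Rpl9 and Rps18), or 1.53%, against 2.92% of all genes. At the same p 3 members were lower (Eif4e3, Eif3k and Rps15), or 2.29%, against 3.56% of all genes. Both shares lie below the background.

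The intervals show how small a difference these arrays could still hold. The 95% limma interval lay within 0.5 of 0 on the log2 scale for 129 of the 131 genes, the exceptions being Eif4e3 (-0.60 to -0.05) and Eif4g3 (-0.22 to 0.60). It lay within 0.25 of 0 for 68 genes. The median standard error was 0.0805. In 3 members every array labelled RictoraP2KO lay above every control array (Rpl9, Rps6 and Eef1b2), against 1.5% of all genes, and in 3 every one lay below (Rps15, Rpl7a and Eef1a1), against 2.07% of all genes. Each set is 2.29% of the members, which is near those shares.

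**Figure D1:**
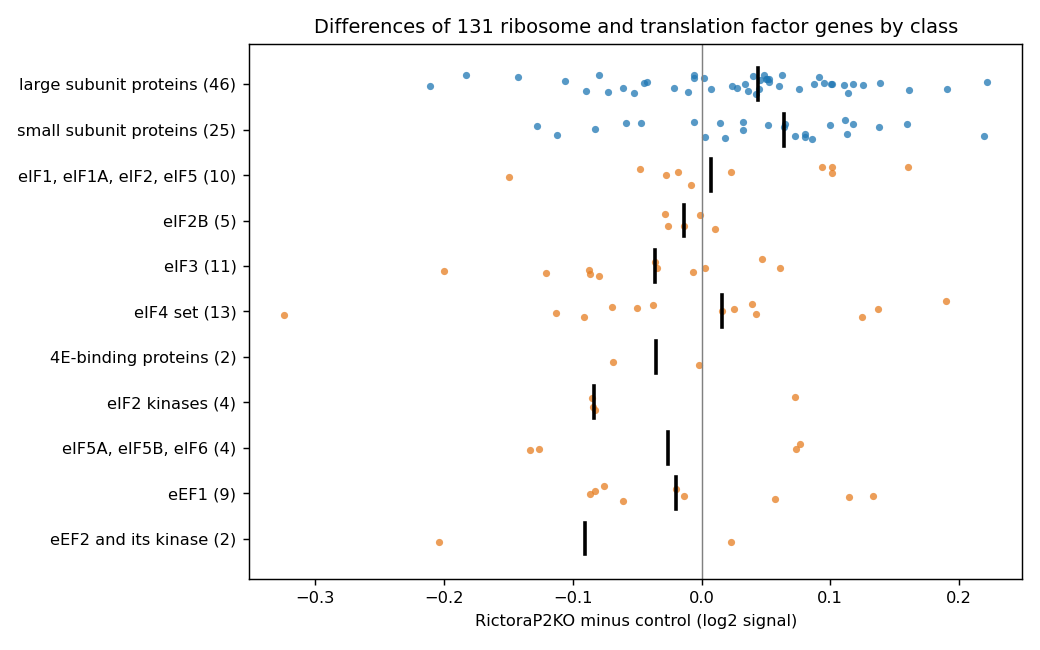
Difference in log2 RMA signal, RictoraP2KO minus control, for each of the 131 members (points), grouped by role, with the median of each group. The points lie between -0.32 and 0.22, and the medians of the large and small subunit genes (0.04 and 0.06) stand slightly above those of the eIF3 (-0.04) and eEF1 (-0.02) genes.

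Among the large subunit genes, 31 of 46 had a difference above 0, with a median of 0.04. Rpl9, a protein at the base of the ribosomal stalk, had log2 signals of 10.20, 10.16, 10.04 and 10.11 in RictoraP2KO fat, against 9.80, 10.01, 9.88 and 9.93 in control fat. All 4 RictoraP2KO arrays lay above the 4 control arrays, by a mean of 0.22 (SE 0.0656; limma adjusted p = 0.649). All 8 of its probe sets had the same sign, although probe sets of 1 gene can read the same message or its processed copies and are not independent. Rpl7a, another protein of the large subunit, had 9.67, 9.63, 9.68 and 9.64 in RictoraP2KO fat, against 9.73, 9.76, 9.78 and 9.77 in control fat. Its groups did not overlap either, with RictoraP2KO the lower by 0.11 (difference -0.11, SE 0.049; limma adjusted p = 0.708), and all 17 of its probe sets had that sign.

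Other large subunit genes showed overlapping groups. Rpl27a averaged 9.12 ± 0.12 in RictoraP2KO fat and 8.96 ± 0.12 in control fat, and Rpl15 averaged 9.34 ± 0.10 and 9.20 ± 0.09 (SD, n = 4 each). Rpl35a differed by 0.19 (SE 0.1; 0.29 without those 3 arrays) and Rpl6 by 0.11. On the other side, Rpl11, which binds Mdm2 when free of the ribosome, averaged 8.64 ± 0.16 in RictoraP2KO fat and 8.82 ± 0.19 in control fat (difference -0.18, SE 0.112). That difference was close to 0 (0.00017) without RictoraP2KO replicate 2 and control replicates 2 and 3. Rpl14 differed by -0.21 and is a dim probe set, under the median signal of all probe sets (3.77). The stalk protein gene Rplp0, often used as an internal standard, had 10.38, 10.40, 10.44 and 10.45 in RictoraP2KO fat, against 10.38, 10.37, 10.41 and 10.48 in control fat. These ranges overlapped almost entirely (difference 0.01, SE 0.053), and only 1 of its 4 probe sets had the sign of the brightest one. Rpl12 was the steadiest member, within 0.07 over all 8 arrays.

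Among the small subunit genes, 19 of 25 had a difference above 0, with a median of 0.06. Rps18, a protein of the head of the small subunit, had 9.49, 9.63, 9.27 and 9.40 in RictoraP2KO fat, against 9.07, 9.25, 9.28 and 9.31 in control fat. The groups overlapped by 1 array, RictoraP2KO replicate 3, and the difference was 0.22 (SE 0.0895; limma adjusted p = 0.668), with all 7 probe sets of that sign. Rps6, the ribosomal protein that S6 kinase phosphorylates downstream of mTOR complex 1, had 11.76, 11.81, 11.66 and 11.69 in RictoraP2KO fat, against 11.57, 11.62, 11.65 and 11.61 in control fat. Its groups met but did not overlap, at 11.66 and 11.65, and the difference was 0.12 (SE 0.0563; limma adjusted p = 0.719). All 8 of its probe sets had that sign, but their median difference was smaller, at 0.0575.

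Rps15 went the other way. This protein of the small subunit head had 10.55, 10.61, 10.57 and 10.59 in RictoraP2KO fat, against 10.71, 10.69, 10.78 and 10.65 in control fat. All 4 RictoraP2KO arrays lay below the control arrays, by a mean of 0.13 (difference -0.13, SE 0.0531; limma adjusted p = 0.668). The median difference over its 3 probe sets, all of that sign, was -0.234. Rps15a, which has a similar name but is a different protein, averaged 7.78 ± 0.08 in RictoraP2KO fat and 7.62 ± 0.11 in control fat (SD, n = 4 each; difference 0.16, SE 0.072, and 0.24 without the 3 arrays with signal of other tissues). Its values overlapped between the groups by 1 array, control replicate 2 at 7.76. Proteins needed in equal numbers had messages with differences of either sign, none past the adjusted test.

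**Figure D2:**
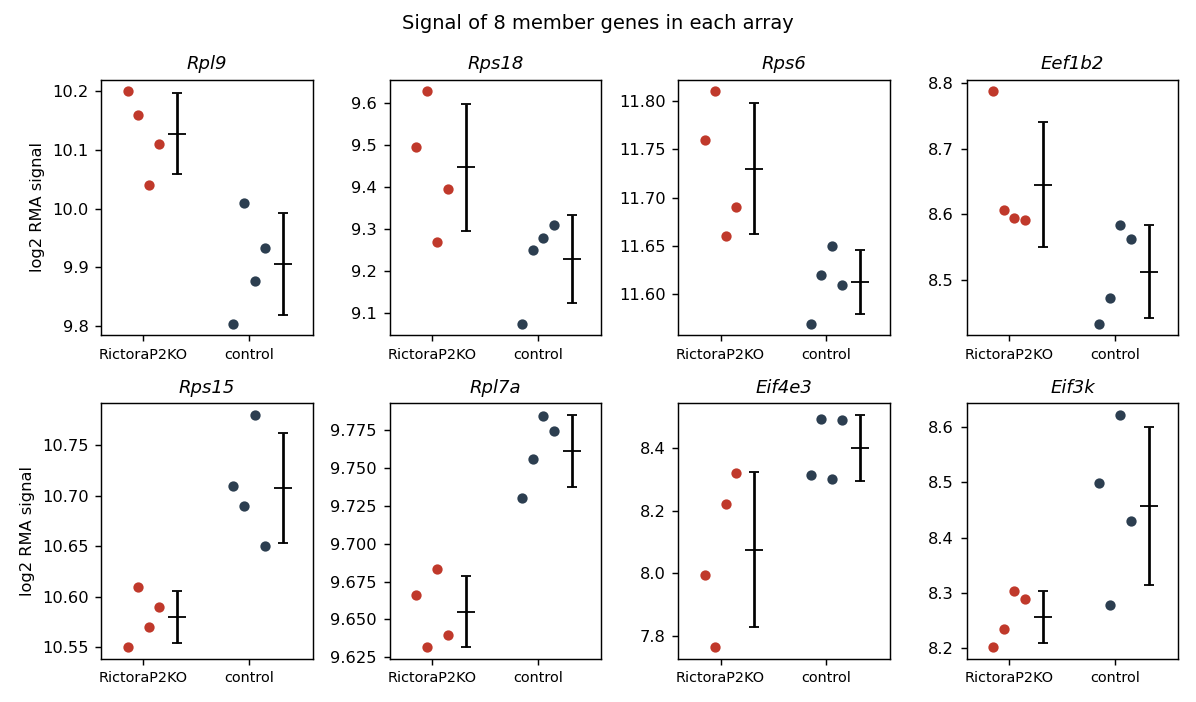
Log2 RMA signal in each array (points, RictoraP2KO left of control) with the mean and SD beside them, for Rpl9, Rps18, Rps6, Eef1b2, Rps15, Rpl7a, Eif4e3 and Eif3k, each on an axis of its own range. The groups do not overlap for Rpl9, Rps6, Eef1b2, Rps15 and Rpl7a, and they overlap for Rps18, Eif4e3 and Eif3k.

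Many ribosomal protein genes shared the same low array. Of the 71, 43 (60.6%) had their lowest value in control replicate 1, where 11.2% of all genes had theirs. As a mean over the 71 genes, with each gene centred on its own mean over 8 arrays, the arrays labelled RictoraP2KO stood at 0.06, 0.05, -0.03 and -0.02, against -0.11, 0.01, 0.02 and 0.01 in the control arrays. Control replicate 1 was the lowest, and the other 7 lay between -0.03 and 0.06. Without control replicate 1, 38 of the 71 ribosomal protein genes had a difference above 0 rather than 50, and their median was 0.01 rather than 0.05. With any other single array left out, 47 to 55 of them were above 0. Rps4x stood at 7.35 in control replicate 1, with the other control arrays between 7.60 and 7.64, and Rps27 at 7.18, with the others between 7.61 and 7.77. Without RictoraP2KO replicate 2 and control replicates 2 and 3, the differences of these genes were 0.21 for Rps4x rather than 0.14, and 0.21 for Rps27 rather than 0.09.

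Genes with and without a pyrimidine run at their start were among those low in that array. Of the ribosomal protein genes with an annotated start, 17 of 32 with a run had their lowest value in control replicate 1, and 18 of 25 without one. Median differences between the groups were 0.05 with a run and 0.06 without. In factor genes they were -0.00 over 15 genes with a run and -0.02 over 32 without. No test was made of these splits.

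**Figure D3:**
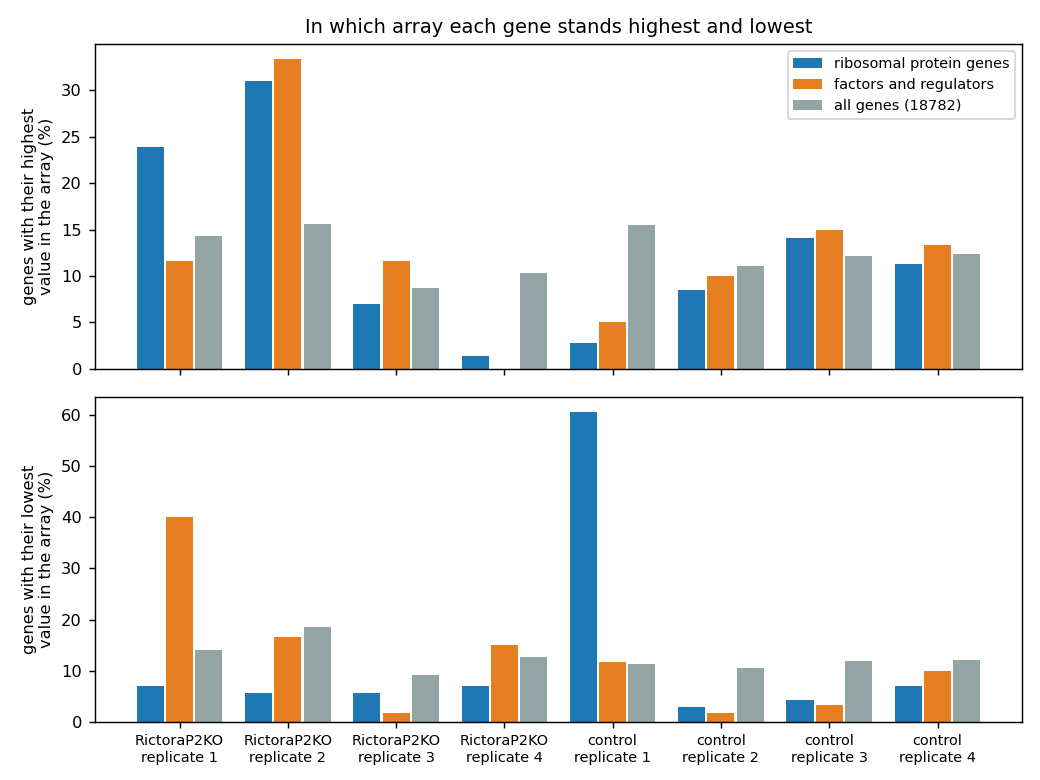
Share of ribosomal protein genes (71), factor and regulator genes (60) and all genes (18782) whose highest or lowest value lay in each of the 8 arrays, in percent. Control replicate 1 holds the lowest value of 60.6% of ribosomal protein genes, and RictoraP2KO replicate 1 that of 40.0% of factor genes.

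Initiation begins with selection of the start codon, where eIF1 and eIF1A open the small subunit for scanning and eIF2 carries the initiator tRNA. Of the 10 measured genes of this step, 5 had a difference above 0, with a median of 0.01, and none reached an unadjusted p of 0.05. Eif1ax averaged 6.87 ± 0.14 in RictoraP2KO fat and 7.02 ± 0.10 in control fat, and the X- and Y-linked genes of eIF2 subunit gamma, Eif2s3x and Eif2s3y, differed by -0.05 (SE 0.0631) and 0.16 (SE 0.109). The 5 subunits of eIF2B, which recharges eIF2 with GTP, had differences from -0.03 to 0.01. The 4 kinases of the integrated stress response act on this step by phosphorylating eIF2, which then blocks eIF2B. Of these, Eif2ak1 (HRI) differed by -0.08 (SE 0.061), Eif2ak2 (PKR) by 0.07 (SE 0.131), Eif2ak3 (PERK) by -0.09 and Eif2ak4 (GCN2) by -0.08. None reached an unadjusted p of 0.05. Without the 3 arrays with signal of other tissues the 4 differences were -0.06, 0.03, -0.01 and 0.03.

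In eIF3, the large scaffold that holds the small subunit and the message together, 8 of 11 measured subunits had a difference below 0, with a median of -0.04. Eif3k, a peripheral subunit, had 8.20, 8.24, 8.30 and 8.29 in RictoraP2KO fat, against 8.50, 8.28, 8.62 and 8.43 in control fat. The groups overlapped by 1 control array, replicate 2, and the difference was -0.20 (SE 0.0778; limma adjusted p = 0.668). Eif3b, a core subunit, averaged 8.17 ± 0.11 in RictoraP2KO fat and 8.29 ± 0.09 in control fat (SD, n = 4 each), a difference of -0.12 (SE 0.0734). The array means of the 11 subunits were -0.06, 0.01, -0.02 and -0.02 in RictoraP2KO fat, against -0.02, -0.01, 0.08 and 0.05 in control fat, which overlapped.

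The eIF4 proteins bind the cap and unwind the start of the message. Of 13 measured genes, 7 had a difference above 0, with a median of 0.02. Eif4e3, a cap-binding relative of eIF4E, had the largest difference of all members: 7.996, 7.764, 8.223 and 8.321 in RictoraP2KO fat, against 8.314, 8.494, 8.303 and 8.490 in control fat. RictoraP2KO replicate 2 was the lowest array, and replicate 4 lay within the control range, for a difference of -0.32 (SE 0.121; limma adjusted p = 0.668). Without RictoraP2KO replicate 2 and control replicates 2 and 3 it was -0.22. Eif4e itself had 6.63, 7.10, 6.93 and 6.75 in RictoraP2KO fat, against 6.90, 6.66, 6.85 and 6.85 in control fat. Its control values lay inside the RictoraP2KO range (difference 0.04, SE 0.106). The sign for Eif4e turned without the 3 arrays named above (-0.10) and with the mean of its probe sets (-0.04).

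The repressors that mTOR complex 1 releases from eIF4E, the 4E-binding proteins, also overlapped. Eif4ebp1 had 9.80, 9.41, 9.77 and 9.53 in RictoraP2KO fat, against 9.79, 9.68, 9.54 and 9.78 in control fat. Eif4ebp2 had 9.57, 9.27, 9.73 and 9.48 in RictoraP2KO fat, against 9.66, 9.43, 9.45 and 9.52 in control fat. RictoraP2KO replicate 2 was the lowest array for both, and the differences were -0.07 (SE 0.101) and -0.00 (SE 0.101). Eif4g1 and Eif4ebp3 have no probe set of their own in the annotation used and were not analysed here. Eif5a, the hypusinated factor that helps ribosomes past difficult peptide bonds, differed by -0.13 (SE 0.0831), but its 2 probe sets disagreed in sign. Eif6, which keeps the subunits apart until they are mature, differed by -0.13 (SE 0.114).

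In elongation, 3 of 9 genes with an eEF1 name had a difference above 0, with a median of -0.02. The group was made by name. Besides factors that deliver aminoacyl-tRNA it holds Eef1akmt1, Eef1akmt2 and Eef1aknmt, which encode methyltransferases of eEF1A, and Eef1e1. Eef1b2, which exchanges the nucleotide on eEF1A, had 8.79, 8.61, 8.60 and 8.59 in RictoraP2KO fat, against 8.43, 8.47, 8.58 and 8.56 in control fat. RictoraP2KO replicate 1 stood apart, and the other 3 lay only just above the highest control array (difference 0.13, SE 0.0679; limma adjusted p = 0.732). Without that array the difference was 0.09. Eef1a1, the tRNA carrier itself, had 11.62, 11.56, 11.62 and 11.52 in RictoraP2KO fat, against 11.67, 11.66, 11.66 and 11.66 in control fat. Its groups did not overlap, with RictoraP2KO lower (difference -0.08, SE 0.0512; limma adjusted p = 0.768), near the top of the deposited scale, which ended at 12.52.

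Eef2, the translocase, averaged close to equal in the groups (difference 0.02, SE 0.053; 0.05 without the 3 arrays). Its kinase Eef2k, which halts elongation and is itself inhibited downstream of mTOR complex 1, had 4.97, 4.50, 4.94 and 4.81 in RictoraP2KO fat, against 4.91, 5.08, 5.01 and 5.02 in control fat. The groups overlapped, with RictoraP2KO replicate 2 the lowest array (difference -0.20, SE 0.105; limma adjusted p = 0.732). Without the 3 arrays with signal of other tissues the difference was -0.06.

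Factor genes varied more between arrays than ribosomal protein genes did. The median range over the 8 arrays was 0.40 for the 60 factor and regulator genes and 0.30 for the 71 ribosomal protein genes. The 6 members with the widest ranges were all factor genes, Eif1a, Eif2b3, Eif5a2, Eif1ad, Eif4g3 and Eif4g2, and each was highest in RictoraP2KO replicate 2. Eif1a had 5.22, 6.12, 5.37 and 5.57 in RictoraP2KO fat, against 5.68, 5.26, 5.88 and 5.56 in control fat, a range of 0.91 and a difference of -0.03 (SE 0.201). Eif2b3, a subunit of eIF2B, had 6.64, 7.50, 6.89 and 7.04 in RictoraP2KO fat, against 7.06, 6.96, 7.32 and 6.78 in control fat. In both, the lowest and the highest RictoraP2KO array lay outside the control range, and the group means over 4 arrays were nearly equal. Without the 3 arrays with signal of other tissues the difference was -0.24 for Eif1a and -0.07 for Eif2b3. Eif4g2, an eIF4G relative used in cap-independent initiation, had 9.53, 10.20, 9.91 and 9.85 in RictoraP2KO fat, against 9.92, 9.65, 9.96 and 9.46 in control fat (difference 0.12, and 0.07 without the 3 arrays). The signs for Eif5a2 (0.07) and Eif1ad (0.09) turned without the same arrays, to -0.04 and -0.10.

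**Figure D4:**
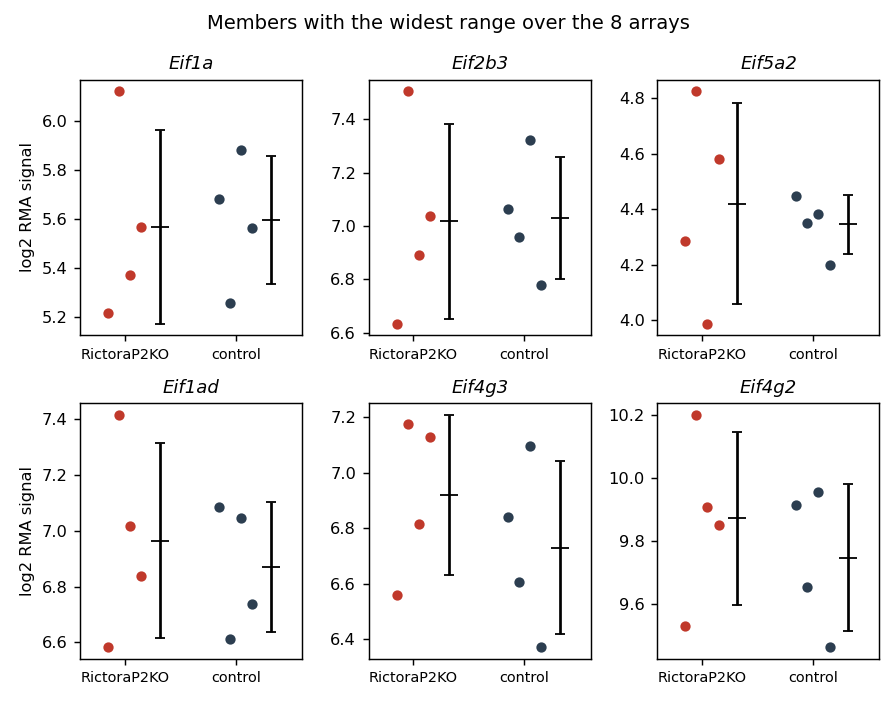
Log2 RMA signal in each array (points, RictoraP2KO left of control) with the mean and SD beside them, for the 6 members with the widest range, each on an axis of its own range. The highest point of every panel is RictoraP2KO replicate 2, and the group means lie within 0.19 of each other.

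Many factor genes were lowest in RictoraP2KO replicate 1, and many genes of both classes were highest in RictoraP2KO replicate 2. Of the 60, 24 (40.0%) had their lowest value in RictoraP2KO replicate 1, against 14.1% of all genes, and 20 (33.3%) their highest in RictoraP2KO replicate 2, as did 22 of the 71 ribosomal protein genes (31.0%), against 15.6% of all genes. The array means of the factor genes were -0.08, 0.06, 0.01 and -0.03 in RictoraP2KO fat, against 0.01, -0.02, 0.05 and -0.00 in control fat. The low mean in RictoraP2KO replicate 1 is not particular to them. That array was also the lowest for proteasome subunit genes (-0.10) and mitochondrial ribosomal protein genes (-0.08). The 10 brown fat markers averaged -0.51 in RictoraP2KO replicate 1 and 0.32 in replicate 2, while the control arrays spanned -0.20 to 0.20, but they did not move as one. Only Elovl3 (6.84) was lowest in RictoraP2KO replicate 1, and 3 markers were highest and 3 lowest in RictoraP2KO replicate 2. In the same arrays the heart marker means were -1.25 and 1.56, and the skeletal muscle mean was 1.27 in RictoraP2KO replicate 2. The part of these other signals in the factor values was not tested. RictoraP2KO replicate 2 was the lowest array for 10 factor genes (16.7%), among them Eef2k, Eif4e3, Eif4ebp1 and Eif4ebp2. That share is near the 18.5% of all genes.

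**Figure D5:**
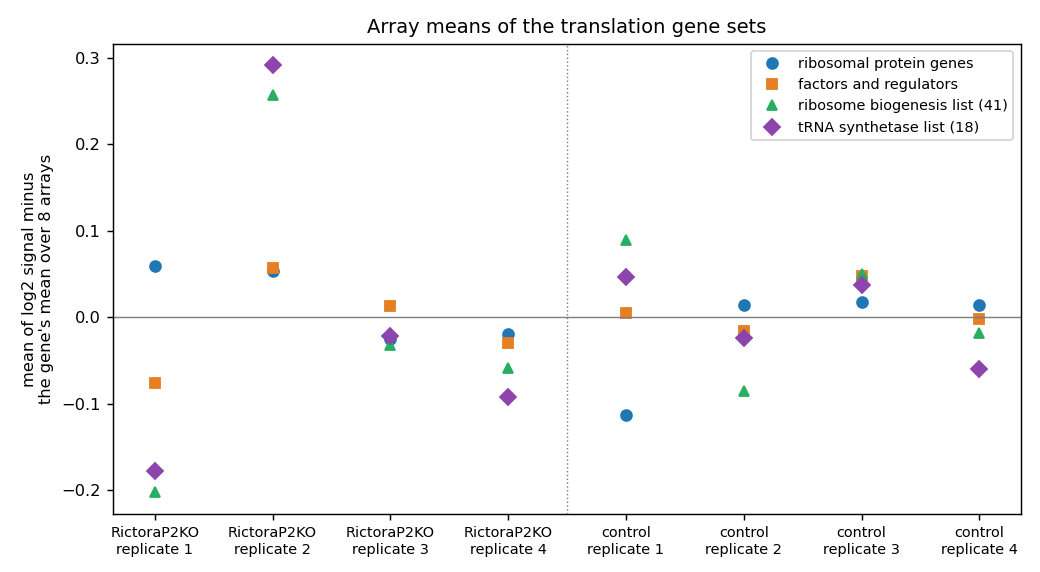
Mean centred log2 signal per array for the ribosomal protein genes, the factor and regulator genes and the lists set beside them, each gene centred on its mean over the 8 arrays. Ribosomal protein genes are lowest in control replicate 1 (-0.11), while ribosome biogenesis and tRNA synthetase genes run from -0.20 and -0.18 in RictoraP2KO replicate 1 to 0.26 and 0.29 in RictoraP2KO replicate 2.

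Several members have a paralog with a narrower pattern of expression, and the balance within a pair can be compared array by array. The log2 ratio of the first form of a pair to its partner was compared between the groups for 8 pairs. The test was exact permutation of the group labels (two-sided, 70 assignments, smallest possible p 0.0286). The first form was taken as the restricted one, but Rps27l and Eif4e3 gave the higher signal of their pair in all 8 arrays. For these pairs the name restricted is not borne out by the signals. With all 8 arrays the largest difference was for Eif4e3 over Eif4e, at 1.37, 0.66, 1.29 and 1.57 in RictoraP2KO fat, against 1.41, 1.84, 1.45 and 1.65 in control fat. These overlapped, and the difference of -0.36 had an exact p of 0.114 (0.857 after adjustment over the 8 pairs). RictoraP2KO replicate 2 held the ratio of 0.66, and with 1 array left out at a time the difference lay between -0.48 and -0.18. Without the 3 arrays with signal of other tissues it was -0.12, smaller than those of Rps4l over Rps4x (-0.39) and Rpl3l over Rpl3 (-0.22). For Rps4l over Rps4x the difference was -0.25 (exact p = 0.429, adjusted 0.857), with control replicate 1 (-0.48) apart from the other 7 arrays. For Rpl3l over Rpl3, a pair in which the restricted form belongs to striated muscle, the difference was -0.12 (exact p = 0.371, adjusted 0.857). Eif5a2 over Eif5a differed by 0.21 (exact p = 0.429, adjusted 0.857), and by 0.13 without the 3 arrays. The other four, Rpl10l over Rpl10, Rpl39l over Rpl39, Rps27l over Rps27 and Eef1a2 over Eef1a1, differed by -0.05 to 0.01, with exact p from 0.629 to 0.971, and by -0.14 to -0.0082 without the 3 arrays. The restricted forms Rpl3l, Rpl10l and Rpl39l were dim probe sets. Taken singly, without the 3 arrays Rpl3l differed by -0.15 rather than -0.04, Rpl10l by -0.03 rather than 0.04, Rpl10 by 0.04 rather than 0.09, Rps4l by -0.18 rather than -0.11 and Eef1a2 by -0.22 rather than -0.08.

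Among genes that act around the ribosome none passed the adjusted test either, and the counts at an unadjusted limma p under 0.05 are to be read against 2.92% of all genes higher and 3.56% lower. Of the ribosomal proteins that the naming rule misses, 3 of the 8 listed could be measured, and Rpsa differed by 0.06, Fau by -0.05 and Rpl7l1 by 0.05. On the list of mTOR and its links to translation, which also holds Rictor of complex 2, 14 genes were measured, with a median of -0.06. At that p 1 was higher, which is Rictor itself, given above, and 1 (7.14%) was lower, Mtor, the kinase itself, which averaged 8.27 ± 0.32 in RictoraP2KO fat and 8.62 ± 0.16 in control fat (SD, n = 4 each; difference -0.35, SE 0.155, limma adjusted p = 0.685). Larp1, the protein that holds pyrimidine-tract messages, averaged 8.10 ± 0.16 in RictoraP2KO fat and 7.87 ± 0.18 in control fat (difference 0.23, SE 0.109, limma adjusted p = 0.717).

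In ribosome biogenesis, 41 of 44 listed genes were measured, with 1 higher and 1 lower at that p (2.44% each) and a median of -0.03. Taf1b, a subunit of the RNA polymerase I selectivity factor, had 5.44, 5.39, 5.31 and 5.33 in RictoraP2KO fat, against 5.20, 5.24, 5.20 and 5.09 in control fat. Its groups did not overlap (difference 0.19, SE 0.0591, limma adjusted p = 0.651). Taf1a, of the same factor, went the other way (difference -0.24, SE 0.13), as did Grwd1, a ribosome assembly protein (difference -0.28, SE 0.12). Among 13 genes of termination and poly(A) binding, 2 were higher (15.4%) and 1 lower (7.69%) at that p, a share that 1 gene moves by 7.69 points. Mcts1, which helps to recycle the small subunit, differed by 0.28 (SE 0.113), Paip2, an inhibitor of poly(A)-binding protein, by -0.14 (SE 0.0619), and Gspt2, a release factor relative with a dim probe set, by 0.36 (SE 0.116). None of the 18 measured tRNA synthetase genes reached it, and Farsa (0.15), Aimp2 (-0.13) and Kars (-0.11) were nearest.

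Beside the cytosolic ribosome, 2 other large assemblies were read the same way. Of the 71 cytosolic ribosomal protein genes, 50 (70.4%) had a difference above 0, with a median of 0.05. Of 74 mitochondrial ribosomal protein genes 35 did, with a median of -0.02, of 44 proteasome subunit genes 17, with a median of -0.02, and of all genes 46.8%, with a median of -0.01. At an unadjusted p under 0.05, the counts were 2 higher and 1 lower for cytosolic ribosomal proteins, 2 higher and 4 lower for mitochondrial ones, and 0 higher and 1 lower for the proteasome. As shares of each set these are 2.82% and 1.41%, 2.70% and 5.41%, and 0% and 2.27%, beside 2.92% higher and 3.56% lower over all genes. The higher share of the cytosolic genes is the one that fell to 38 of 71 without control replicate 1, and no test was made of it.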

How the data were processed

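The 131 members and the gene lists were chosen with earlier results of these data known. RNA of 8 samples was hybridised to Affymetrix Mouse Gene 1.1 ST arrays, with 5 µg of total RNA per labelling. The authors deposited log2 values, 1 per probe set and array, made with RMA; the submitters' processing notes name Affymetrix Power Tools 1.10.2; scanner intensities were not used here. RMA equalises the arrays, so a change in total RNA would not show. The array annotation gave 1 symbol for 21158 of 28371 probe sets, several for 1881 and none for 5332; only the first were named, and no source used here gives its genome build. All 131 member symbols match RefSeq. The 64 members with more than 1 probe set are represented by the brightest.

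RictoraP2KO was compared with control for every probe set with limma 3.58.1 in R 4.3.3 (lmFit, eBayes, two-sided, Benjamini-Hochberg over all probe sets), with no filter and no covariate. The same fit was run on data simulated with the means and residual spreads of these arrays. In each run 200 probe sets drawn at random from all were changed, by 0.25, 0.5, 1 or 2. At an adjusted p under 0.05 it recovered 5.4% of the differences of 0.25 set there and 49.2% of those of 0.5. The larger changes loosen the Benjamini-Hochberg threshold, and in the real arrays only 0.00352% of probe sets passed. These shares may thus be too high for the real arrays. Differences as small as those of the members would thus often be missed. Precision is limited by the number of arrays, and the p-values reflect only the spread among these samples, which may be technical. Same-numbered arrays did not deviate together (correlations -0.15, -0.03, 0.03 and 0.09), so the numbers were not taken as pairs. Named members are the 10 with the smallest unadjusted p in each direction, the 6 with the widest range, the paralog pairs, set regulators and standards, and up to 3 per list. Marker lists also covered T cells, macrophages, endothelium and smooth muscle. Alternatives were a filter on dim probe sets, other normalisations and variance models, array weights, a replicate block, each array or 3 arrays left out, mean probe sets and other thresholds.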

Additional observations from a re-analysis of the deposited data

Results flagged for a closer look

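In 100 groups of 4 arrays checked, 8 held an array that stood apart from the other 3 by Dixon's test at the 95% level, where chance gives about 1 in 20 groups. RictoraP2KO replicate 1 was high for Eef1b2 (8.788, the others 8.592 to 8.607) and for Eef2 (10.6, the others 10.48 to 10.5). RictoraP2KO replicate 2 was high for Rpl14, a dim probe set (3.782, the others 3.535 to 3.57), and for Eef1a2 (4.285, the others 3.749 to 3.834). Control replicate 1 was low for Rps4x (7.349, the others 7.597 to 7.641) and for the mean of the 71 ribosomal protein genes (-0.1131, the others 0.01383 to 0.01724). It was high for Eef1a1 (11.67, the others 11.66), where values above 10 were deposited with 2 decimals and the gap is 1 step. Control replicate 3, the array with neuronal signal, was low for Eif2ak2 (5.471, the others 5.914 to 5.96), and whether that signal has a part in it was not tested.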

How the results depend on the processing

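No member passed an adjusted p of 0.05, or of 0.1, under any setting run; the smallest limma adjusted p over the settings lay between 0.443 (without RictoraP2KO replicate 3) and 0.969. The precision is set by 4 arrays a group, and dim probe sets add little. The members' median difference (0.02) ran from -0.0025 to 0.04 with 1 array left out, within the spread between arrays but not of 1 sign; that of factor genes (-0.02) was -0.05 without the 3 arrays with other tissue signal. Counts at an unadjusted limma p under 0.05 were 2 higher and 3 lower, against 2.92% and 3.56% of all genes. They became 5 lower with limma-trend, against 3.35% of all genes, and 1 higher with array weights, against 2.95%. At a limma p under 0.01 they were 1 higher and 0 lower, and the shares of all genes at that threshold are not given here. Without RictoraP2KO replicate 2 and control replicates 2 and 3, 1 member was lower at an unadjusted limma p under 0.05, against 2.67% of all genes. In that setting 10 members were higher and 12 lower with no overlap, where smaller groups overlap less often by construction. With each array left out in turn the counts at that p ran from 1 to 4 higher and 1 to 3 lower. Of all genes, 2.27% to 4.13% were higher and 2.62% to 4.20% lower in those settings. With no overlap, 3 to 7 members were higher and 3 to 8 lower. The shares of all genes with no overlap in smaller groups are not given here. The counts with no overlap are thus not read as a result about the members. With the replicate number as a block, 1 member was higher at an unadjusted limma p under 0.05, against 2.66% of all genes. The numbers do not pair the arrays.

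Some small differences turned sign, and the cause was not tested beyond the arrays named. Without those 3 arrays the differences were 0.00017 for Rpl11, -0.040 for Eif5a2, -0.097 for Eif1ad, -0.029 for Rpl10l, -0.102 for Eif4e, 0.0052 for Eif4ebp2, 0.029 for Eif2ak4, -0.0067 for Rplp0 and -0.14 for Eef1a2 over Eef1a1. With the mean of all probe sets Eif4e was at -0.038 and Rplp0 at -0.019, and with array weights Eif4ebp2 was at 0.035. Leaving out 1 array at a time, the ranges crossed 0 for Eif1a (-0.212 to 0.089), Eif2b3 (-0.18 to 0.11), Eif5a2 (-0.062 to 0.217), Eif1ad (-0.056 to 0.220), Rpl3l (-0.12 to 0.00042), Rpl10l (-0.013 to 0.097), Rps27 (-0.040 to 0.154), Eif4e (-0.043 to 0.113), Eif4ebp1 (-0.12 to 0.0031), Eif4ebp2 (-0.075 to 0.078), Eif2ak2 (-0.045 to 0.146), Eif2ak4 (-0.125 to 8.3e-05), Eef2 (-0.0042 to 0.036) and Rplp0 (-0.0058 to 0.031). The same held for the ratios Rpl10l over Rpl10 (-0.13 to 0.0069), Rpl39l over Rpl39 (-0.038 to 0.054), Rps27l over Rps27 (-0.096 to 0.107) and Eef1a2 over Eef1a1 (-0.12 to 0.079).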
